A study of Mus musculus with 9 samples.

Results

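The cytochrome P450 family of the mouse was described here across 84 genes, each measured by 1 probe set, among 19938 genes with a single-gene probe set. The members were all genes whose platform symbol is Cyp followed by a family number and a subfamily letter, without those marked as pseudogenes; where a gene had several probe sets, the one with the highest mean would have stood for it, but each member had exactly 1. Cyp51, which has no subfamily letter, fell outside this rule, and 7 further probe sets that match several genes, a P450 gene among them, were left out. The known nasal genes Cyp2a4 and Cyp2a5 had no single-gene probe set. All 84 members were matched to RefSeq by Entrez number.

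Nasal mucosa of BALB/c mice, labelled male and 6 to 8 weeks old, was measured on 9 Affymetrix Mouse Gene 1.0 ST arrays, 3 per group. Control mice received saline for both sensitisation and challenge. OVA mice received ovalbumin, an egg protein used as allergen, for both and were killed 2 hours after their final challenge, while the 4-week group had the same ovalbumin course and was killed 4 weeks after it. The title of the series refers to avoiding the allergen, so the comparisons ask what had changed shortly after challenge and what differed once the allergen had been absent for weeks. The labels do not say whether each array came from 1 animal, so the p-values cover only how these samples vary, and that variation may be technical.

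Values are log2 expression per probe set, and the 9 array medians lay between 6.38 and 6.45. The arrays labelled control went against their label of male. Xist, the RNA that silences the X chromosome in female cells, averaged 10.81 there against 4.29 in OVA and 4.33 in the 4-week arrays, and the Y-linked Eif2s3y averaged 3.31 against 8.28 and 8.25. Both comparisons with control therefore cannot be told apart from a comparison of sex patterns, and only 4-week against OVA sets like against like in this respect. The 4-week group was killed 4 weeks after the same course, though all groups carry the same age label. In that comparison the absence of allergen therefore cannot be told apart from age or the day of killing. Tissue markers were present, with Omp, the marker of mature olfactory neurons, between 11.78 and 12.26 in the group means and the odorant-binding protein Obp1a between 12.74 and 13.01.

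P450 enzymes are haem proteins that insert oxygen into fatty acids, steroids, retinoids and foreign chemicals, most of them in the endoplasmic reticulum with electrons from P450 reductase. The olfactory mucosa is among the tissues outside the liver with the most P450 protein, held mainly in its supporting cells and glands, where the enzymes clear inhaled chemicals and odorants. Families 1 to 3 act chiefly on foreign compounds, family 4 on fatty acids and eicosanoids, and the higher families on sterols, bile acids, vitamin D, retinoic acid and steroid hormones. Several family 2, 3 and 4 genes also differ between the sexes in mouse liver and kidney.

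The bases just upstream of 6 members are shown because these genes carry the patterns described below. Cyp2j6 was higher in both ovalbumin groups, and Cyp1a1 was higher at 4 weeks. Cyp2b10 and Cyp2b19 had their lowest values in OVA, and Cyp2d26 and Cyp8b1 were lower than in control. Each line gives 250 bases that end at the annotated start, 5′ to 3′ on the gene's strand, from RefSeq with build GRCm38.p6. Capitals mark matches to 5 motifs searched on both strands. They are the TATA box, written TATAAA, and the E-box, written CACGTG. The core of the Ah receptor element is written GCGTG. A form of the HNF4 site is written CAAAGTCCA, and a form of the C/EBP site is written TTGCATAA. None of these motifs overlapped another in the windows shown.
Cyp2j6 (chr4:96553652-96553901, minus strand): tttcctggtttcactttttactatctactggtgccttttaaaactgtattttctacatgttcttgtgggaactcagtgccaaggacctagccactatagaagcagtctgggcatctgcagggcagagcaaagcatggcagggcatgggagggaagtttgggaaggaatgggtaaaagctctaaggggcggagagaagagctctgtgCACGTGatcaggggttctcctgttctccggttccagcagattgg
Cyp1a1 (chr9:57697363-57697612, plus strand): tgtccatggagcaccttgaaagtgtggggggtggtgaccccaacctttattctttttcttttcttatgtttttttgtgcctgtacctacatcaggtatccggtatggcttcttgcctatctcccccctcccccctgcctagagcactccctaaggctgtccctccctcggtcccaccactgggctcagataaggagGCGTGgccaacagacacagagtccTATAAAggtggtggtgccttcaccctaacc
Cyp2b10 (chr7:25897408-25897657, plus strand): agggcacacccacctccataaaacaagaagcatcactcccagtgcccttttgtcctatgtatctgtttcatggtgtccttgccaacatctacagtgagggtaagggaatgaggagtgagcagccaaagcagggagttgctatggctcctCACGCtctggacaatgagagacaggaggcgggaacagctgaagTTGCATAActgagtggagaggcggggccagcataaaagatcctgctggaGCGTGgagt
Cyp2b19 (chr7:26756892-26757141, plus strand): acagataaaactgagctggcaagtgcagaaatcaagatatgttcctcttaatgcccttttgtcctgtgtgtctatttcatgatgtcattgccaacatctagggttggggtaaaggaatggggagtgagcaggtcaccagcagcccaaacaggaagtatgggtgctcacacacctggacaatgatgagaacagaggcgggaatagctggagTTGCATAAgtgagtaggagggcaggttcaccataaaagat
Cyp2d26 (chr15:82794246-82794495, minus strand): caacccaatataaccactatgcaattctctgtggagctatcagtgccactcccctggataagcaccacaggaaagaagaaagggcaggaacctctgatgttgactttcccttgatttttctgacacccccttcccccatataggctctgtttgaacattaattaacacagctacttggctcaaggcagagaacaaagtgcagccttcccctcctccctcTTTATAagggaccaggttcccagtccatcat
Cyp8b1 (chr9:121916306-121916555, minus strand): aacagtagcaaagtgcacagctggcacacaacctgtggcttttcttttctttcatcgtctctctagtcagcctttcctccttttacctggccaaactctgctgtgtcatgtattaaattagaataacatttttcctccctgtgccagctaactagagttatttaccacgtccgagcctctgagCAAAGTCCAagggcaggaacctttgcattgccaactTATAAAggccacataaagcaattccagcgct

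Windows were found for 63 of the 84 members, and the motifs were chosen after the sequences had been read. TATAAA was found upstream of 23 of these 63 genes (36.5%) and in 12.4% of 32851 windows of the same length in all genes. For each motif a member counted if any of its windows matched, while the background counts windows. The shares set side by side are therefore in unlike units. CAAAGTCCA, a form of the site of the liver regulator HNF4, was found upstream of 7 of the 63 (11.1%) and in 0.384% of all windows; the 7 included Cyp8b1 and Cyp2c70. Several of the 7 are tandem copies of one another and share sequence. TTGCATAA was found upstream of 4 members (6.35%; 0.694% of all windows), namely Cyp2b10, Cyp2b19, Cyp2b23 and Cyp4f14. CACGTG was found upstream of Cyp2j6 alone among the 63 (1.59%; 6.02% of all windows) and GCGTG upstream of 14 (22.2%; 28.2% of all windows). The Cyp2b10 and Cyp2b19 windows were identical at 186 of 275 aligned positions (67.6%), while the other 14 pairs of windows shown had 45.8% to 52.2%. A match describes letters and is not evidence of binding.

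The P450 probe sets with the highest values in this tissue were those of Cyp2f2, Cyp2g1 and Cyp1a2. Probe sets differ in how strongly they bind, so these values do not rank transcript amounts. Cyp2f2, which bioactivates naphthalene in airway cells, stood at 13.09, 13.11 and 13.02 in control, 13.05, 13.05 and 12.89 in OVA and 13.09, 13.05 and 13.07 at 4 weeks. Cyp2g1, an olfactory-specific P450, lay between 12.69 and 12.99 on all 9 arrays. Neither passed in any comparison by limma (Cyp2f2 log2 changes from −0.08 to 0.07, SE 0.07, adjusted p from 0.537 to 0.97; Cyp2g1 from −0.09 to 0.08, SE 0.09). Cyp1a2, an aryl hydrocarbon-responsive enzyme, stood at 10.99, 11.05 and 11.07 in control, 10.84, 10.95 and 10.82 in OVA and 11.24, 11.04 and 11.44 at 4 weeks. Its 4-week arrays lay above all OVA arrays without passing (log2 change 0.37, SE 0.10, adjusted p = 0.0584). It passed without 4-week replicate 2 (adjusted p = 0.0411). Cyp27a1, the mitochondrial sterol 27-hydroxylase, was among the 10 members with the highest mean and did not pass, with changes between −0.17 and 0.20.

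In all, 18 of the 84 members passed in at least 1 comparison and 66 in none (limma, Benjamini-Hochberg adjusted p under 0.05 over 23410 probe sets). In OVA minus control 4 of 84 members passed (4.76%), where 1.3% of all probe sets did: Cyp2j6 rose, as did 0.782% of all probe sets, and Cyp4a14, Cyp2d26 and Cyp4f14 fell, as did 0.521%. In 4-week minus OVA 3 passed (3.57%), where 6.33% of all probe sets did, and all 3 were higher at 4 weeks: Cyp4a12a, Cyp4a12b and Cyp2b10. Of all probe sets, 3.81% were higher and 2.51% lower there. In 4-week minus control 14 passed (16.7%), where 14.4% of all probe sets did; 12 were lower (6.45% of all probe sets) and 2, Cyp2j6 and Cyp1a1, were higher (7.92% of all probe sets). The 3 comparisons share arrays, so these counts are not independent of each other. The members' share was above the background in the first, below it in the second and close to it in the third. The F test for any difference among the groups called 14 members, where it called 12.4% of all probe sets.

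The signs leaned downward against control. Of the 84 members, 70 (83.3%) had a negative OVA minus control change, with a median of −0.13; over all probe sets 54.7% were negative and the median was −0.02. In 4-week minus control 64 (76.2%) were negative with a median of −0.19, against 57.5% and −0.04 over all. In 4-week minus OVA the members were split, with 45 negative and 39 positive and a median of −0.06. At 4 weeks the lean was found at low values: of the 60 members with a mean under 6, 53 were negative against control (88.3%; 77.2% of all 9687 probe sets at that level), and of the 24 members with a mean of 6 or more 11 were (45.8%; 43.5% of all). In OVA it was found at both levels, with 51 of the 60 low members negative (85%; 66.9% of all) and 19 of the 24 higher ones (79.2%; 46% of all). After quantile normalization 62 and 53 members were negative against control and the 4-week minus OVA median was 0.02. No detection calls come with the values, so low values may be background.

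**Figure D1:**
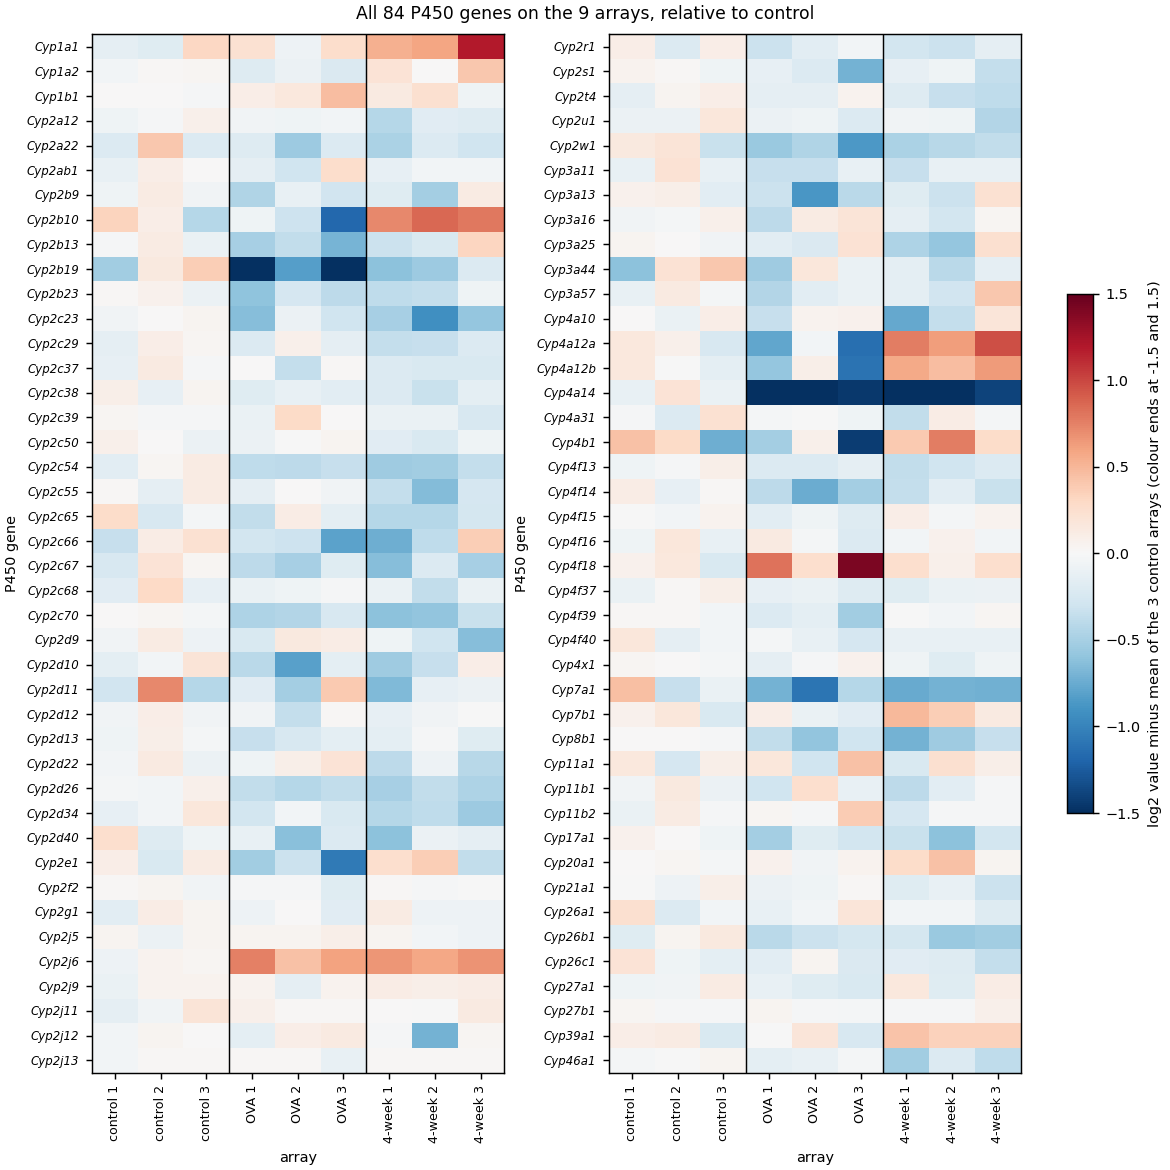
Log2 value of each of the 84 P450 genes (rows, ordered by family number) on each of the 9 arrays (columns), minus the mean of the 3 control arrays; colour ends at −1.5 and 1.5. Cyp4a14 is dark blue on all 6 ovalbumin arrays, Cyp2j6 is red on the same 6, and Cyp4a12a, Cyp4a12b and Cyp2b10 are red on the 3 4-week arrays.

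After 4 weeks without allergen the transcripts of 2 fatty acid hydroxylases and of a phenobarbital-inducible enzyme were higher than shortly after challenge. Cyp4a12a, an arachidonic acid omega-hydroxylase that makes 20-HETE, stood at 8.47, 9.21 and 8.11 in OVA and 10.01, 9.87 and 10.21 at 4 weeks. Its control values, 9.41, 9.32 and 9.01, lay below every 4-week array, and only OVA replicate 2 of the OVA arrays reached into them. The gene rose 2.71-fold from OVA to 4 weeks (log2 change 1.44 with SE 0.25 over 3 arrays a group, limma adjusted p = 0.0146). This call held whichever of the 9 arrays was left out (adjusted p up to 0.047; log2 change from 1.19 without OVA replicate 3 to 1.74 without OVA replicate 2) and when the control arrays were not in the fit (0.048). In the other comparisons Cyp4a12a had −0.65 (OVA minus control, adjusted p = 0.239) and 0.78 (4-week minus control, adjusted p = 0.0638). The latter passed without OVA replicate 2 (0.0176) or 3 (0.0405) and among the upper 60% of probe sets (0.0465), and the former without OVA replicate 2 (0.0466).

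Cyp4a12b, the close paralog, stood at 10.95, 10.79 and 10.65 in control, 10.22, 10.88 and 9.69 in OVA and 11.36, 11.26 and 11.44 at 4 weeks. The order of the arrays within OVA was the one seen for Cyp4a12a. Near-identical copies can share probe signal, so the values of the pair are not separate measurements. Cyp4a12b rose 2.13-fold from OVA to 4 weeks (log2 change 1.09, SE 0.24, adjusted p = 0.036). Leaving out single arrays removed its call in 7 of 9 cases, with adjusted p from 0.0511 to 0.089, and was kept without control replicate 3 and OVA replicate 2; without OVA replicate 3 the change was 0.80. Without the control arrays in the fit it did not pass either (adjusted p = 0.087).

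Cyp2b10, the classic target of the constitutive androstane receptor, stood at 8.93, 8.70 and 8.17 in control, 8.54, 8.29 and 7.42 in OVA and 9.32, 9.46 and 9.39 at 4 weeks. The 4-week arrays lay together above all 6 others, and OVA replicate 3 was the lowest. Cyp2b10 rose 2.47-fold from OVA to 4 weeks (log2 change 1.31, SE 0.28, adjusted p = 0.0303). The change was 0.98 without OVA replicate 3 (adjusted p = 0.0575), and the call was also lost without control replicate 2, OVA replicate 2 or any 4-week replicate (0.0535 to 0.0939) and without the control arrays (0.059). With the control arrays out, 1 of the 3 members called in this comparison therefore remained, Cyp4a12a.

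Of the other 4 genes of subfamily 2B, the epidermal Cyp2b19 had the widest range. It stood at 7.09, 7.76 and 7.98 in control, 6.07, 6.78 and 5.35 in OVA and 6.99, 7.07 and 7.40 at 4 weeks, so the OVA arrays lay below all others. Its changes, −1.55 (SE 0.34, adjusted p = 0.0755) against control and 1.09 (SE 0.34, adjusted p = 0.0962) from OVA to 4 weeks, did not pass. Without OVA replicate 2 both passed (0.037 and 0.0494). Cyp2b9, Cyp2b13 and Cyp2b23 had OVA minus control changes of −0.28, −0.52 and −0.42 and 4-week minus OVA changes of 0.09, 0.45 and 0.15, none of which passed. All 5 genes of the subfamily thus had a negative first change and a positive second one, and these comparisons share the OVA arrays. Cyp2b10 alone passed in either.

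Cyp4b1, which hydroxylates short fatty acids and bioactivates furans in airway tissue, stood at 8.94, 8.79 and 7.77 in control, 7.99, 8.58 and 7.08 in OVA and 8.89, 9.27 and 8.77 at 4 weeks. Its log2 change of 1.10 from OVA to 4 weeks (SE 0.40) did not pass (adjusted p = 0.136), and control replicate 3 and OVA replicate 3 were each low within their group. Cyp2e1, the ethanol-inducible enzyme, stood at 7.69, 7.37 and 7.72 in control, 7.07, 7.27 and 6.53 in OVA and 7.84, 7.96 and 7.23 at 4 weeks, with changes of −0.64 (adjusted p = 0.217) and 0.72 (adjusted p = 0.0983). OVA replicate 3 was the lowest OVA array for 14 of the 24 members with a mean of 6 or more, OVA replicate 2 for 6 and OVA replicate 1 for 3, with 1 tie.

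**Figure D2:**
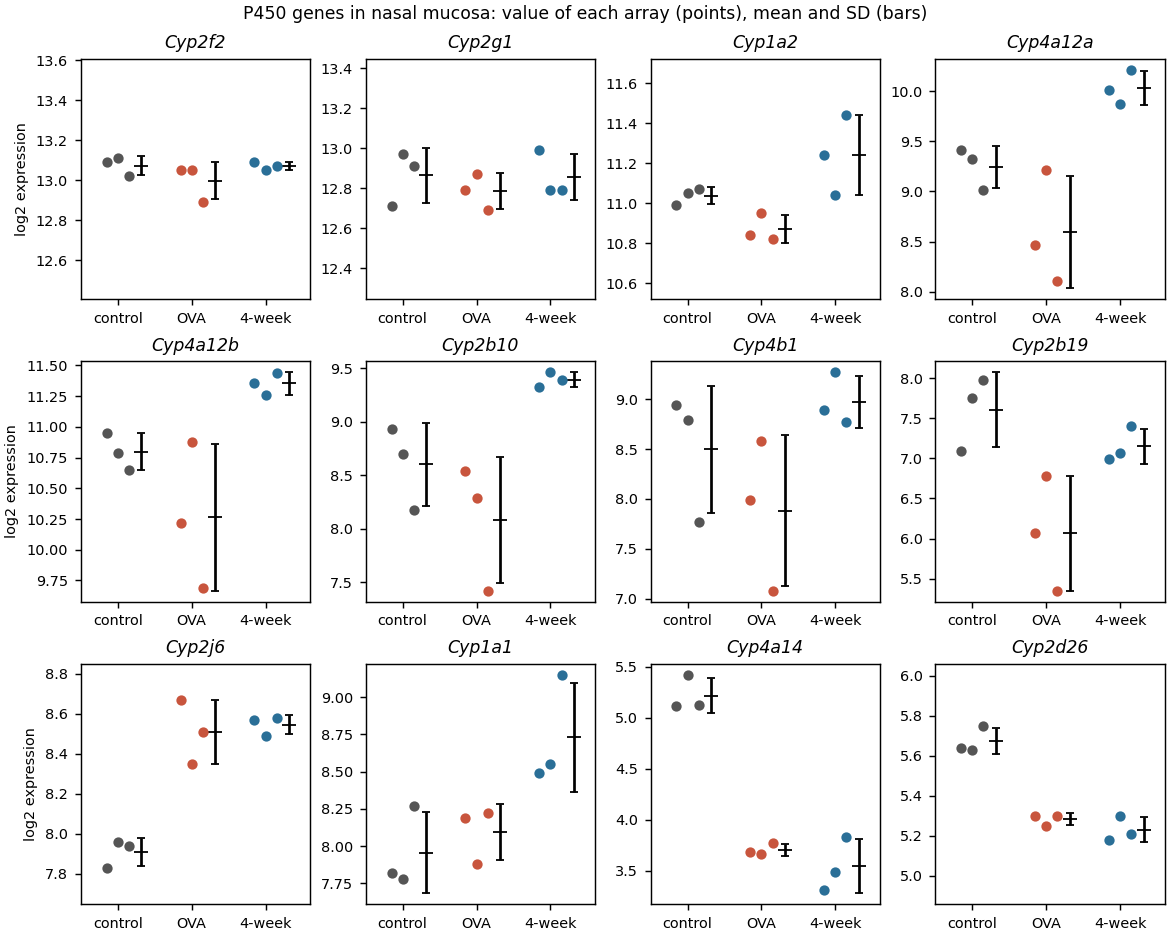
Log2 expression (vertical axis, a separate range in each panel) of 12 P450 genes on each array; points are the replicates 1 to 3 of control, OVA and 4-week from left to right, and bars are the group mean with its SD. The 4-week points of Cyp4a12a, Cyp4a12b and Cyp2b10 lie above all OVA points, and the control points of Cyp4a14 and Cyp2d26 lie above all 6 others.

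As a list, the P450 genes known from nasal mucosa had 10 members of 13 counted as measured. Another was listed as Cyp2c44, an older symbol of Cyp2c23, so its probe set was not counted. Cyp2c23 was lower in OVA than in control (−0.34). At 4 weeks it was lower than in OVA (−0.32, limma adjusted p = 0.225). Its fall at 4 weeks against the control arrays passed (−0.67, adjusted p = 0.0217). The counts and means of this list leave out Cyp2c23, and the list was not tested with it. Cyp2j6 rose in OVA minus control (1 of 10 passed, and 1.3% of all probe sets). There 8 of the 10 changes were negative (80%, median −0.26), near the 83.3% of all members. Cyp2b10 rose in 4-week minus OVA (1 of 10 passed, and 6.33% of all probe sets). In that comparison 9 of the 10 were positive, and 39 of all 84 members (list median 0.27, against −0.02 over all probe sets). The mean of the list lay between 8.41 and 8.91 on the OVA arrays, between 8.95 and 9.08 in control and between 9.13 and 9.23 at 4 weeks. The 3 groups did not overlap, but both control edges lay close to the neighbouring group. The mean of the list for electron donors and haem also separated the 3 groups (8.56 to 8.61 in control, 8.64 to 8.69 in OVA, 8.80 to 8.82 at 4 weeks). How often gene lists in general do so was not tested. The nasal list and the others were made with earlier results of these data known, so the lean of the nasal list is a description.

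Cyp4a14, a fatty acid omega-hydroxylase and a well-known PPARα target in liver, had the largest fall among members that passed, in both comparisons with control. It stood at 5.11, 5.42 and 5.12 in control, 3.68, 3.66 and 3.77 in OVA and 3.31, 3.49 and 3.83 at 4 weeks. The control arrays lay far above the other 6, which overlapped one another. The gene was 2.86-fold lower in OVA (log2 change −1.51, SE 0.13, adjusted p = 0.00218) and 3.20-fold lower at 4 weeks (−1.68, SE 0.13, adjusted p = 0.000909) than in control. The lower values lie where the Y-linked Eif2s3y reads on the arrays with the female pattern (3.31), so they may be at background, and the folds may then understate the difference. Both calls held in all 9 fits without an array, with adjusted p up to 0.0151 and 0.00635. From OVA to 4 weeks it had −0.16 (adjusted p = 0.5).

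Cyp2d26, a liver-type member of subfamily 2D, showed the same order on a smaller scale, at 5.64, 5.63 and 5.75 in control, 5.30, 5.25 and 5.30 in OVA and 5.18, 5.30 and 5.21 at 4 weeks. It fell by 0.40 in OVA minus control (SE 0.06, adjusted p = 0.0261) and by 0.45 in 4-week minus control (SE 0.06, adjusted p = 0.00479) on the log2 scale. The first call was lost without any 1 of the 6 control and OVA arrays (adjusted p from 0.0534 to 0.0869) and with only the groups compared (0.0609), and the second held without each of the 9. Cyp4f14, a leukotriene B4 hydroxylase of liver and gut, stood at 5.40, 5.17 and 5.31 in control and 4.90, 4.55 and 4.78 in OVA. Its fall by 0.55 (SE 0.11, adjusted p = 0.0457) was lost in all 9 fits without an array (0.0603 to 0.111), after quantile normalization (0.0795) and with only the groups compared (0.0937).

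Of the 12 members lower at 4 weeks than in control, 10 had a mean under 6, as did 60 of all 84 members. The 12 were chosen as lower than the control arrays that OVA minus control also uses, so no OVA minus control count is read for them. Besides Cyp4a14 and Cyp2d26 they included 4 genes of the epoxygenase subfamily 2C: Cyp2c23 (−0.67, SE 0.15, adjusted p = 0.0217), Cyp2c70 (−0.52, SE 0.09, adjusted p = 0.00975), Cyp2c54 (−0.47, SE 0.09, adjusted p = 0.0105) and Cyp2c55 (−0.42, SE 0.11, adjusted p = 0.038). All 13 measured genes of subfamily 2C had a negative change here, and all but Cyp2c37 had a mean under 6. At that level 88.3% of members and 77.2% of all probe sets were negative in this comparison. Cyp2c70, which makes the muricholic acids of mouse bile, stood at 4.66, 4.68 and 4.62 in control, 4.19, 4.21 and 4.41 in OVA and 4.04, 4.06 and 4.32 at 4 weeks. Cyp8b1, the sterol 12-alpha-hydroxylase that sets the kind of bile acid made, stood at 5.50, 5.50 and 5.48 in control, 5.13, 4.90 and 5.20 in OVA and 4.78, 4.96 and 5.15 at 4 weeks, a fall by 0.53 (SE 0.11, adjusted p = 0.0154). The bile acid enzyme Cyp7a1, at 4.40, 3.61 and 3.85 in control against 3.20, 3.25 and 3.23 at 4 weeks, did not pass (−0.72, SE 0.21, adjusted p = 0.0504). It passed without control replicate 2, OVA replicate 2 or OVA replicate 3 (0.045, 0.0443 and 0.0476), with 1 probe set per gene (0.0485) and with an intensity trend and robust variances (0.0461).

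The other members that fell in 4-week minus control were Cyp2d34 (−0.46, adjusted p = 0.0175), Cyp26b1, a retinoic acid hydroxylase (−0.44, adjusted p = 0.0287), Cyp17a1, the steroid 17-alpha-hydroxylase (−0.41, adjusted p = 0.0446), Cyp46a1, the cholesterol 24-hydroxylase of neurons (−0.37, adjusted p = 0.025), and Cyp4f13 (−0.29, adjusted p = 0.0306). Cyp4a14, Cyp2c54, Cyp2c70, Cyp2d26 and Cyp2d34 kept their calls in all 9 fits without an array, and Cyp8b1 lost its call without 4-week replicate 2 (adjusted p = 0.0522). Those of Cyp17a1 and Cyp2c55 were lost in 7 of 9 (up to 0.124 and 0.109), those of Cyp26b1, Cyp46a1 and Cyp4f13 in 4 (up to 0.0942, 0.0702 and 0.0874) and that of Cyp2c23 in 3 (up to 0.0681). Cyp17a1 lost it without control 1, 2 or 3, OVA 2 or 3 or 4-week 1 or 2, and Cyp2c55 without control 1 or 3, any OVA array or 4-week 1 or 2. Control replicates 2 and 3 were among the arrays whose absence ended the calls of Cyp26b1 (also 4-week 2 or 3), Cyp46a1 (also 4-week 1 or 3), Cyp4f13 (also 4-week 1 or 2) and Cyp2c23 (also 4-week 2). After quantile normalization Cyp2d34 (adjusted p = 0.0746), Cyp17a1 (0.0928), Cyp2c55 (0.107) and Cyp46a1 (0.0539) did not pass. With only the groups compared in the fit Cyp26b1 (0.0666), Cyp17a1 (0.0629), Cyp2c55 (0.0812), Cyp46a1 (0.0587) and Cyp4f13 (0.0669) did not.

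Genes of liver cells and plasma proteins were also lower than on the same control arrays. Of 15 measured liver-type genes, 9 were lower in OVA than in control (60%, where 0.521% of all probe sets were). At 4 weeks 14 were lower than in control (93.3%, where 6.45% of all probe sets were). These counts are at an adjusted p under 0.05, and the median changes were −1.09 and −1.28. By limma, 0 passed in 4-week minus OVA (1 at an unadjusted p under 0.05, median −0.07). The mean of the list was 5.76 to 6.16 on the control arrays, 4.85 to 5.06 in OVA and 4.81 to 4.92 at 4 weeks, and the log2 of its summed level was 9.90 to 10.35, 8.94 to 9.14 and 8.95 to 9.01. Alb (albumin), a defining liver gene, averaged 5.09, 3.96 and 3.80, and Hnf4a, the liver regulator, 6.00, 5.58 and 5.58. The part of these genes in the falls of the P450 genes was not tested. In such bulk samples fewer cells of a type cannot be told apart from less RNA per cell.

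**Figure D3:**
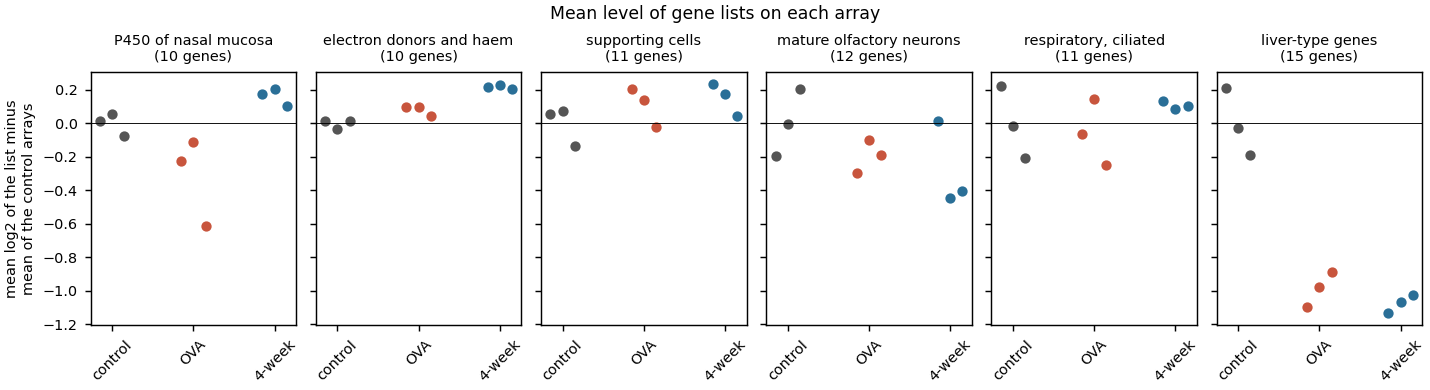
Mean log2 value of 6 gene lists on each array (vertical axis, minus the mean of the control arrays), with control, OVA and 4-week arrays from left to right; each point is an array and the number of measured genes stands in each title. The liver-type genes lie about 1 log2 unit lower on all 6 ovalbumin arrays, while the nasal P450 list, counted without Cyp2c23, is lowest on the OVA arrays and highest on the 4-week arrays.

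Cyp2j6 and Cyp1a1 were the members higher than in control. Cyp2j6, an epoxygenase of arachidonic acid and other fatty acids, stood at 7.83, 7.96 and 7.94 in control, 8.67, 8.35 and 8.51 in OVA and 8.57, 8.49 and 8.58 at 4 weeks. The control arrays lay below all 6 others, which overlapped one another. It rose 1.51-fold in OVA (log2 change 0.60, SE 0.09, adjusted p = 0.0186) and 1.56-fold at 4 weeks (0.64, SE 0.09, adjusted p = 0.00375), both against control, and had 0.04 from OVA to 4 weeks (adjusted p = 0.812). The 4-week call held in all 9 fits without an array. The OVA call was lost without control replicate 1, 2 or 3 or OVA replicate 1 or 3 (adjusted p from 0.0525 to 0.0704). The other 5 measured genes of subfamily 2J, which like Cyp2j6 lie on chromosome 4, did not pass in any comparison: Cyp2j9, Cyp2j5, Cyp2j11 and Cyp2j13 had changes within 0.12 of 0, and Cyp2j12 had 0.03, −0.26 and −0.23.

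Cyp1a1, the most inducible target of the aryl hydrocarbon receptor, stood at 7.82, 7.78 and 8.27 in control, 8.19, 7.88 and 8.22 in OVA and 8.49, 8.55 and 9.15 at 4 weeks. All 3 4-week arrays lay above the other 6, with 4-week replicate 3 the highest. It rose 1.71-fold from control to 4 weeks (log2 change 0.77, SE 0.20, adjusted p = 0.0336). The call was lost without control replicate 1 or 2 or 4-week replicate 2 or 3 (adjusted p up to 0.103; 0.56 without 4-week replicate 3) after quantile normalization (0.0691) and with only the groups compared (0.0703). From OVA to 4 weeks Cyp1a1 had 0.63 (adjusted p = 0.094).

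**Figure D4:**
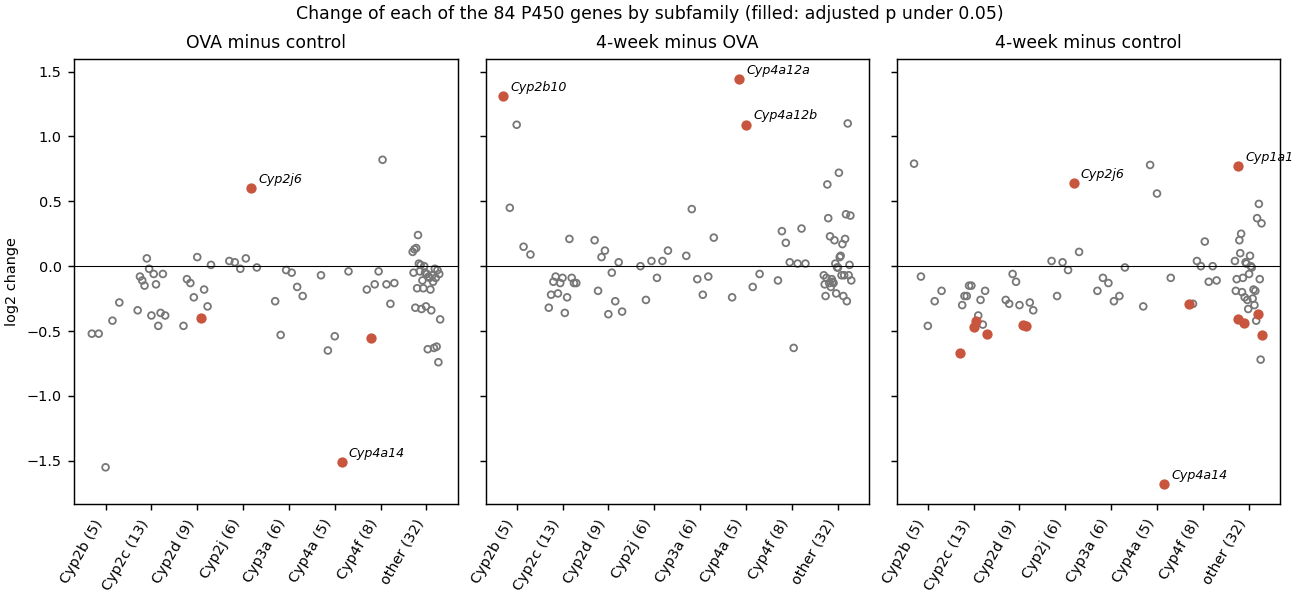
Log2 change (vertical axis) of each of the 84 P450 genes in the 3 comparisons, grouped by subfamily with the number of genes in brackets; subfamilies of under 5 genes are pooled as other, and filled points have an adjusted p under 0.05. Subfamily 2C lies below 0 for all 13 genes in 4-week minus control, where 76.2% of the 84 genes do. Cyp2j6 stands apart from the other 5 genes of subfamily 2J in both comparisons against control.

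Fatty acid hydroxylases of family 4 went in different directions. Of 15 measured members of the list, 2 passed in each comparison (13.3%), where 1.3%, 6.33% and 14.4% of all probe sets did. Cyp4a14 and Cyp4f14 fell in OVA minus control (median −0.14), with 14 of 15 negative (93.3%, where 83.3% of all members were). Cyp4a12a and Cyp4a12b rose in 4-week minus OVA (median 0.02), and Cyp4a14 and Cyp4f13 fell in 4-week minus control (median −0.09). The only positive one of the 15 in OVA minus control was Cyp4f18, a leukotriene B4 hydroxylase of neutrophils and other leukocytes. It stood at 5.22, 5.31 and 4.92 in control, 5.97, 5.40 and 6.56 in OVA and 5.40, 5.23 and 5.40 at 4 weeks. Its change of 0.82 (SE 0.25) did not pass (adjusted p = 0.151), but passed without OVA replicate 2 (0.0427), the OVA array nearest to control.

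Enzymes of sterols, bile acids, retinoids and steroid hormones passed only in 4-week minus control, where 14.4% of all probe sets did: 3 of 7 (42.9%), 1 of 5 (20%) and 1 of 5 (20%). Of 7 sterol and bile acid genes, Cyp8b1 and Cyp46a1 fell and Cyp51, the lanosterol demethylase outside the family rule, rose by 0.28 in 4-week minus control (adjusted p = 0.0471). In both other comparisons 0 of 7 passed by limma (3 at an unadjusted p under 0.05 in each). Of 5 retinoid and vitamin D genes, Cyp26b1 fell in 4-week minus control; 0 passed in OVA minus control (1 unadjusted) and 0 in 4-week minus OVA (0 unadjusted) by limma. Of 5 steroid hormone genes, Cyp17a1 fell in 4-week minus control, and the counts in the other comparisons were again 0 by limma, with 1 and 0 at an unadjusted p under 0.05. Markers of steroid-producing cells had 1 of 5 members lower in 4-week minus control, Hsd17b3.

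Because the control arrays carry the female pattern, P450 genes with known sex bias in liver or kidney were set side by side. Of 4 male-biased genes (Cyp4a12a, Cyp4a12b, Cyp7b1 and Cyp2d9), 0 passed against control by limma in either comparison (1 and 3 at an unadjusted p under 0.05), with medians of −0.30 for OVA and 0.44 for 4 weeks. Cyp4a12a averaged 9.25 in control, 8.59 in OVA and 10.03 at 4 weeks, with the control mean between those of the groups with the male pattern. Whether the bias known from liver or kidney holds in nasal mucosa was not tested. With only the groups compared in the fit, Cyp4a12a and Cyp4a12b passed in 4-week minus control (adjusted p = 0.0237 and 0.0254). Of 7 measured female-biased genes, 0 passed in OVA minus control by limma (2 unadjusted, all 7 negative, median −0.28). In 4-week minus control Cyp17a1 of these fell (5 negative, median −0.13). The female-biased list holds no family 4 gene, so these counts leave out Cyp4a14, which fell in both comparisons with control (−1.51 and −1.68). Cyp2b10, on the female-biased list, had 0.79 in 4-week minus control (adjusted p = 0.0883). It passed there without OVA replicate 3 (0.0303) and with the replicate number as a block (0.0417).

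Of 10 measured genes for electron donors and haem, the partners of the P450 enzymes, 3 passed in each comparison of the 4-week arrays (30%, against 6.33% of all probe sets in 4-week minus OVA and 14.4% in 4-week minus control), and 4 of the 10 had a negative change from OVA to 4 weeks. Cyb5a (cytochrome b5), Alas1, the first enzyme of haem synthesis, and Hmox2, a haem oxygenase, rose in 4-week minus OVA, by log2 changes of 0.38, 0.33 and 0.31 (adjusted p = 0.049, 0.0297 and 0.0349). In 4-week minus control Cyb5a (0.42, adjusted p = 0.0204), Alas1 (0.24, adjusted p = 0.0477) and Pgrmc1, a haem-binding P450 partner (0.50, adjusted p = 0.0196), rose. In OVA minus control 0 of 10 passed by limma (2 at an unadjusted p under 0.05). The mean of the list was 8.56 to 8.61 in control, 8.64 to 8.69 in OVA and 8.80 to 8.82 at 4 weeks. Por, the P450 reductase, was not among the genes analysed.

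Of 24 measured regulators of P450 genes, 1 passed in OVA minus control (4.17%, where 1.3% of all probe sets did). At 4 weeks 2 passed against OVA (8.33%, where 6.33% of all did) and 5 against control (20.8%, where 14.4% did). Ahr, the aryl hydrocarbon receptor, rose in OVA minus control (0.45, adjusted p = 0.024) and fell in 4-week minus OVA (−0.33, adjusted p = 0.0318). Tiparp, an Ah receptor target, rose in 4-week minus control (0.46, adjusted p = 0.0113), whereas the Ah receptor repressor Ahrr had −0.25 (adjusted p = 0.0661). Dbp, a clock-controlled activator of Cyp2b10 and other P450 genes in liver, fell from OVA to 4 weeks (−0.53, adjusted p = 0.0336) and was also lower at 4 weeks than in control (−1.02, adjusted p = 0.00239). Its repressive counterpart Nfil3 rose in 4-week minus control (0.69, adjusted p = 0.0483), as did Nfe2l2, the oxidative stress factor (0.29, adjusted p = 0.0245), and Hnf4a fell (−0.42, adjusted p = 0.0142). The xenobiotic receptors Nr1i2 and Nr1i3 and Ppara did not pass in any comparison, with changes from −0.28 to 0.09.

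Markers of the cells that line the nose passed in 4-week minus control at 18.2% (supporting cells), 16.7% (mature neurons) and 0 (glands and ciliated cells), where 14.4% of all probe sets did. Of 11 supporting cell markers 0 passed in OVA minus control by limma (3 at an unadjusted p under 0.05), Gsta4, a glutathione transferase, rose in 4-week minus OVA (0.35, adjusted p = 0.036), and Gsta4 and Krt18 rose in 4-week minus control. The log2 of their summed level was 14.19 to 14.42 in control, 14.24 to 14.50 in OVA and 14.22 to 14.44 at 4 weeks, so the groups overlapped. Of 14 gland markers Bpifb9a fell in OVA minus control (−4.80, adjusted p = 0.0415), and 0 passed in either other comparison (3 and 4 unadjusted). Of 12 mature neuron markers Gnal and Rtp1 fell in 4-week minus control, and of 11 respiratory and ciliated markers 0 passed in the 3 comparisons by limma (0, 1 and 1 unadjusted). No marker was at 0, and the part of any of these lists in the P450 values was not tested.

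For the 3 members with the smallest F test p, the most similar members over the 9 arrays were listed among those with an SD of at least 0.3. Cyp2d26 was most like Cyp4a14 (Pearson r = 0.951), Cyp7a1 (0.801) and Cyp2c23 (0.698). Among the candidates, Cyp4a14 was most like Cyp2w1 (0.777), Cyp7a1 (0.77) and Cyp2c23 (0.756). Cyp2d26, with an SD of 0.22, was not a candidate for it. Cyp2j6 was most like Cyp1a1 (0.608), Cyp4f18 (0.547) and Cyp2b10 (0.143). The 9 arrays form 3 groups, so these values mostly restate the group means.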

How the data were processed

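RNA of each sample was read on 1 Mouse Gene 1.0 ST array. The authors deposited log2 values for each probe set, computed with RMA per the submitters' processing notes; its software version is not given there. The log2 scale was read from the values, which run from 1.63 to 13.8. RMA shares its scaling over the arrays and compresses low and high values. Of 35556 rows, 23410 had a gene symbol in the platform annotation of GEO and were tested, 21789 of them with 1 gene.

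One model over the 9 arrays was fitted with limma 3.58.1 (R 4.3.3; 1 mean per group, 6 residual and 2.98 prior degrees of freedom), with two-sided tests and Benjamini-Hochberg adjustment over 23410 probe sets at 0.05. The fit was tested on simulated data. Named genes were every member that passed, the 10 with the highest mean, and members of the lists by smallest p; Cyp2b19, Cyp4f18 and other members given without a call were chosen after their values were seen. Members, lists and tests were chosen with earlier results of these data known. No 2 arrays were identical. Promoter windows were aligned with Biopython 1.88. Same-numbered arrays of different groups deviated with r from −0.0438 to 0.332, over 0.1 in 5 of 9 pairs. Differently numbered arrays of different groups had r from −0.358 to 0.265. The main fit has no block because the labels state no pairing. Whether a batch follows the numbers cannot be told from the labels.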

Additional observations from a re-analysis of the deposited data

How the results depend on the processing

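Without 1 array the count of members called ranged from 1 to 5 in OVA minus control (4 with all arrays), from 1 to 4 in 4-week minus OVA (3) and from 7 to 15 in 4-week minus control (14). The first was 1 without control replicate 1 or 2 or OVA replicate 1 or 3 and 2 without control replicate 3. The second was 1 without control replicate 2, OVA replicate 3 or 4-week replicate 1 or 3. The third was 9 without control replicate 2 or 3 and 7 without 4-week replicate 2. The F test count ranged from 5 (without control replicate 2) to 12 (14), and the counts over all probe sets from 63 to 305 (305), 446 to 1361 (1481) and 1560 to 2966 (3364). With only the groups compared, the members called were 1, 1 and 10, and all probe sets 109, 737 and 2054. In OVA minus control the members called were 2 with every row of the table (143 of all rows), 2 with the replicate number as a block and 1 among the upper 60% of probe sets. In 4-week minus OVA the replicate block called 6 members, and 1 probe set per gene called 946 probe sets. In 4-week minus control the count was 9 after quantile normalization and 5 in the upper 60%, which leaves out most low members. The F test called 8 with every row and 8 in the upper 60%. All other counts under the listed settings lay within 1.5 times. The numbers pair no arrays in the labels, so a call lost under the replicate block is not read as a weaker effect. Under it Cyp4b1 (adjusted p = 0.0338), Cyp1a1 (0.0274) and Cyp7b1 (0.0406) passed in 4-week minus OVA. Cyp7a1 (0.0416), Cyp2b10 (0.0417), Cyp39a1 (0.0435) and Cyp7b1 (0.041) passed under it in 4-week minus control. Cyp2d26 (0.0618) and Cyp4f14 (0.0679) in OVA minus control and Cyp17a1 (0.0691) in 4-week minus control did not.

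No change of the 65 gene and comparison pairs recomputed reversed under any setting. Choosing the probe set with the largest variance gives the same values, since each member has 1. Of probe sets called in 4-week minus OVA, 60.3% were higher, 67.4% after median centring and 53.7% after quantile normalization. The causes were not tested. The number of arrays limits the precision, and signal over background is unknown.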
